A study of Caenorhabditis elegans with 8 samples.

Results

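The subject is the comparison of 2 Caenorhabditis elegans strains, HC125 and the wild type N2, in the single-end stranded libraries of the series. HC125 is read here as the strain that carries Psid-1::gfp, a transgene in which the promoter of sid-1 drives green fluorescent protein, because the design names only this strain and the wild type and the labels identify N2 as the latter. These libraries are replicates 3 and 4 of each strain, 4 of the 8 libraries in all; the other 4 are paired-end and unstranded. RNA was polyadenylated and came from whole worms synchronized by a timed egg lay and taken as young adults, so each value mixes somatic tissues and the germline. The labels do not say that replicates were separate cultures, and the deposited table gives 1 pooled value per gene and strain, so no spread between libraries can be printed. Of the 20541 genes in the table, the 13150 whose test the authors' tool completed are described here.

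The gene sid-1 encodes a membrane channel that imports double-stranded RNA into cells, and worms without it cannot spread RNA interference between tissues. Repeated transgenes in worms are often silenced, and small RNAs made from such a transgene can act on endogenous genes that share its sequence. By its title, the study concerns silencing of an endogenous gene that is passed to progeny. Young adult hermaphrodites hold sperm made in the last larval stage and are producing oocytes, and their outer surface is a collagen cuticle that was renewed at each moult.

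Levels are in FPKM, which scale fragment counts to transcript length and library size. The ratio of HC125 to N2 is log2 of FPKM with 1 added to both values, so low genes show less than their full change. A gene was called where the q-value, the p-value adjusted over all tested genes, was 0.05 or less in the authors' deposited table. The 95% interval of a fold uses a standard error derived from the test statistic that the authors deposited, which had a median of 0.40 log2 units over tested genes. This error had a median of 0.95 log2 units under 1 FPKM and of 0.25 above 100 FPKM, so ratios of low genes carry the most error. The depth of the libraries is unknown. At 1 FPKM or more the table held 11296 genes in HC125 and 11282 in N2.

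Most genes were close between the strains. The median ratio was -0.04, and 94.7% of tested genes lay within 0.5 log2 units of 0. The central 95% of ratios ran from -0.46 to 0.60. By the authors' deposited q, 16 genes passed, which is 0.122% of those tested. Of these, 9 were higher in HC125 (0.0684% of tests) and 7 were lower (0.0532% of tests). All 16 share the smallest p that the authors' deposited table lists, 5e-05, with q = 0.0411, so they cannot be ranked by p. The next q in the authors' deposited values was 0.0774. With no adjustment, the authors' deposited p was under 0.05 for 161 genes higher in HC125 (1.22% of tests) and 153 lower (1.16% of tests), together 2.39% of tests.

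**Figure D1:**
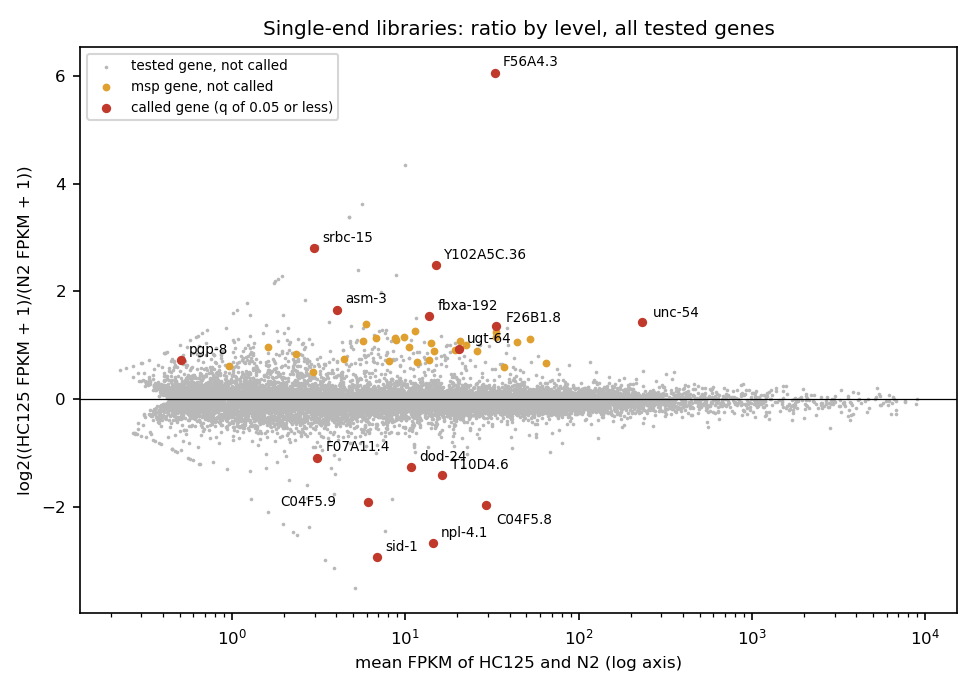
The vertical axis is the log2 ratio of HC125 to N2 (FPKM + 1) and the horizontal axis the mean FPKM of the strains, on a log axis, for the 13150 tested genes of the single-end table. The 16 called genes (red) are not all set apart by ratio from uncalled genes. pgp-8 is at 0.72, while 93 tested genes lie above 1 and 40 below -1. The median is -0.04, and the genes named msp (orange) all lie above 0 without being called.

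Among the 7 genes that fell in HC125, sid-1 had the lowest level relative to N2. It was at 0.818 FPKM in HC125, against 12.9 FPKM in N2, which is 0.0636 of the N2 level (95% interval 0.0336 to 0.120). C04F5.9 and C04F5.8, the adjacent genes upstream on the opposite strand, fell with it. C04F5.9 was at 1.98 FPKM in HC125 and 10.2 FPKM in N2, and C04F5.8 was at 11.3 FPKM in HC125 and 47 FPKM in N2. The 3 are the middle of a run of 5 tested genes in a row on chromosome V that were lower at an unadjusted p under 0.05. Its outer members ugt-63, at 16.1 and 22.9 FPKM in HC125 and N2, and F14F9.5, at 1.07 and 2.14 FPKM in HC125 and N2, were not called.

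The other genes needed for systemic RNA interference did not share the low level of sid-1. Of the 7 tested genes in that list, only sid-1 passed the test. sid-2, which takes up double-stranded RNA from the gut lumen, was at 9.26 FPKM in HC125 and 9.72 FPKM in N2. sid-5, an endosomal protein needed for RNA export between cells, was at 35.2 FPKM in HC125 and 34.9 FPKM in N2. Neither was called.

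The remaining 4 genes that fell lie elsewhere in the genome. npl-4.1 (WBGene00019120), an orthologue of the yeast and human NPL4 adaptor that brings ubiquitinated proteins to the CDC-48 ATPase, lies on chromosome II from 5631357 to 5633350 on the plus strand. It was at 3.2 FPKM in HC125 and 25.7 FPKM in N2, 0.125 of the N2 level (95% interval 0.0744 to 0.209). Its close paralogue npl-4.2, on the same chromosome from 5622895 to 5624979, was at 37.8 FPKM in HC125 and 35.3 FPKM in N2 and was not called. How the authors' tool divided reads that match both copies is not given in the sources used here, so the split between the paralogues is uncertain. The paired-end table lists npl-4.1 at 4.15 FPKM in HC125 and 14.4 FPKM in N2, with p = 0.00035 in the authors' deposited table of that experiment. The tested genes nearest to npl-4.1 in the neighbour search, F59E12.6 and F59E12.15, stood at 24.2 and 18.7 FPKM in HC125, against 26.7 and 22.2 FPKM in N2, and were not called.

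T10D4.6 (WBGene00020408, chromosome II, 3119331 to 3123184, plus strand) was at 8.52 FPKM in HC125 and 24.2 FPKM in N2. That is 0.352 of the N2 level (95% interval 0.241 to 0.513). The paired-end libraries had 9.49 FPKM in HC125 and 10.7 FPKM in N2, p = 0.641 in the authors' deposited table of that experiment. dod-24 (WBGene00007875, chromosome IV, 12940142 to 12941368, minus strand) belongs to the genes first found downstream of the DAF-16 transcription factor and changes in many responses to bacteria. It was at 5.94 FPKM in HC125 and 15.6 FPKM in N2, 0.382 of the N2 level (95% interval 0.220 to 0.663). The paired-end values of dod-24 were 9.88 FPKM in HC125 and 15.9 FPKM in N2, p = 0.0913 in the authors' deposited table of that experiment. Other genes named for the same screen were near equality, dod-19 at 31.7 FPKM in HC125 and 34.1 FPKM in N2, and dod-17 at 4.19 FPKM in HC125 and 3.54 FPKM in N2. F07A11.4 (WBGene00008547, chromosome II, 11603956 to 11611532, plus strand) was at 1.63 FPKM in HC125 and 4.56 FPKM in N2. It was also lower in the paired-end libraries, at 4.67 FPKM in HC125 and 11.41 FPKM in N2, with p = 0.0009 in the authors' deposited table of that experiment.

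Of the 9 genes that rose, F56A4.3 (WBGene00018911) and srbc-15 (WBGene00017496) were listed at 0 in N2. F56A4.3 was at 65.6 FPKM in HC125. srbc-15, which carries a chemoreceptor family name and is a pseudogene in the WBcel235 annotation, was at 5.95 FPKM in HC125. No fold can be given against a strain listed at 0. They are the ends of a run of 5 tested genes in a row on chromosome V, from 2345676 to 2456147, that were all higher at an unadjusted p under 0.05. The 3 genes between them were not called. WBGene00021222, named irld-53 in the files, was at 1.76 FPKM in HC125 and 0.0983 FPKM in N2. Y19D10A.11 was at 1.86 FPKM in HC125 and 0.324 FPKM in N2, and C13B7.6 at 6.88 FPKM in HC125 and 3.11 FPKM in N2. All 5 had a higher level in HC125 than in N2 in the paired-end table too. The gene that the files name irld-35 (WBGene00018917) is tested and listed 28 bp from F56A4.3. It was at 1.28 FPKM in HC125 and 0.00278 FPKM in N2, p = 0.248 in the authors' deposited table. WBcel235 gives the name irld-35 to WBGene00021222, so names overlap between the ends of the run. Sequence similarity among these genes was not examined, so their values may not be independent.

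unc-54 (WBGene00006789, chromosome I, 14855899 to 14863540, minus strand), the major myosin heavy chain of body wall muscle, rose and had the highest level of the called genes. It was at 341 FPKM in HC125 and 125 FPKM in N2, a fold of 2.73 (95% interval 1.91 to 3.90). In the paired-end table it was at 208 FPKM in HC125 and 168 FPKM in N2, with p = 0.482 in the authors' deposited table of that experiment. The other genes of the muscle list did not share its ratio. Over its 38 other tested members the median ratio was 0.08 and the range ran from -0.25 to 0.38. myo-3, the second body wall myosin of the thick filament, was at 8.15 FPKM in HC125 and 7.48 FPKM in N2. Paramyosin, unc-15, was at 94.4 FPKM in HC125 and 82.3 FPKM in N2, and tropomyosin, lev-11, at 732 FPKM in HC125 and 686 FPKM in N2. The member with the next highest ratio, the calponin cpn-3, was at 393 FPKM in HC125 and 301 FPKM in N2, p = 0.0330 in the authors' deposited table, and was not called.

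The gene next to unc-54 was also higher. aex-5, a proprotein convertase, is listed 71 bp downstream of unc-54 on the same strand and stood at 12.25 FPKM in HC125 and 6.62 FPKM in N2, p = 0.00555 in the authors' deposited table. Its paired-end values were 34.4 FPKM in HC125 and 12 FPKM in N2, p = 0.0077 in the authors' deposited table of that experiment. The files give aex-5 the bounds 14846478 to 14855827, which it shares with overlapping genes, so the gap is that of the merged locus. Whether reads were counted by strand is not given in the sources used here. Within 6000 bp of any called gene there were 20 tested uncalled genes. Of these, 4 had an unadjusted p under 0.05, against 2.39% of all tests. They were ugt-63, F14F9.5, irld-53 and aex-5, all named above in runs with called genes. Ratios of the 20 genes ran from -0.60 to 1.33 with a median of -0.13.

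asm-3 (WBGene00000213, chromosome IV, 520210 to 523757, minus strand), an acid sphingomyelinase that releases ceramide from sphingomyelin, rose to 6.64 FPKM in HC125, against 1.41 FPKM in N2. The fold was 4.71 (95% interval 2.23 to 9.94). The family members asm-1, at 4.41 FPKM in HC125 and 4.52 FPKM in N2, and asm-2, at 5.04 FPKM in HC125 and 3.59 FPKM in N2, were not called. The paired-end values of asm-3 were 38.9 FPKM in HC125 and 41.1 FPKM in N2, with no call. fbxa-192 (WBGene00010212), an F-box protein, a class that selects substrates for ubiquitin ligases, rose to 21 FPKM in HC125, against 6.55 FPKM in N2. Its fold was 3.21 (95% interval 2.31 to 4.47).

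Both called genes of the detoxification list rose. ugt-64 (WBGene00015577), a UDP-glucuronosyltransferase of the family that conjugates small lipophilic compounds, was at 26.9 FPKM in HC125 and 13.7 FPKM in N2, a fold of 1.96 (95% interval 1.31 to 2.95). In the paired-end table ugt-64 was not called, p = 0.852 in the authors' deposited table of that experiment. pgp-8 (WBGene00004002), an ABC transporter of the P-glycoprotein family, was low in both strains. It stood at 0.874 FPKM in HC125 and 0.136 FPKM in N2, a fold of 6.43 (95% interval 2.53 to 16.3). Its paired-end level was also higher in HC125, 2.96 FPKM against 0.685 FPKM in N2, p = 0.0005 in the authors' deposited table of that experiment. The family member pgp-5 was at 0.962 FPKM in HC125 and 1.13 FPKM in N2.

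The remaining genes that rose have no name beyond their clone. Y102A5C.36 (WBGene00044213, chromosome V, 16926927 to 16927447, minus strand) was at 26.1 FPKM in HC125 and 3.82 FPKM in N2, a fold of 6.83 (95% interval 2.54 to 18.4). F26B1.8 (WBGene00194703, chromosome I, 6329536 to 6330183, plus strand) was at 48.2 FPKM in HC125 and 18.3 FPKM in N2, a fold of 2.64 (95% interval 1.39 to 5.01). Neither was called in the paired-end table, where Y102A5C.36 had 14 FPKM in HC125 and 9.98 FPKM in N2, and F26B1.8 had 74.2 FPKM in HC125 and 63.5 FPKM in N2.

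**Figure D2:**
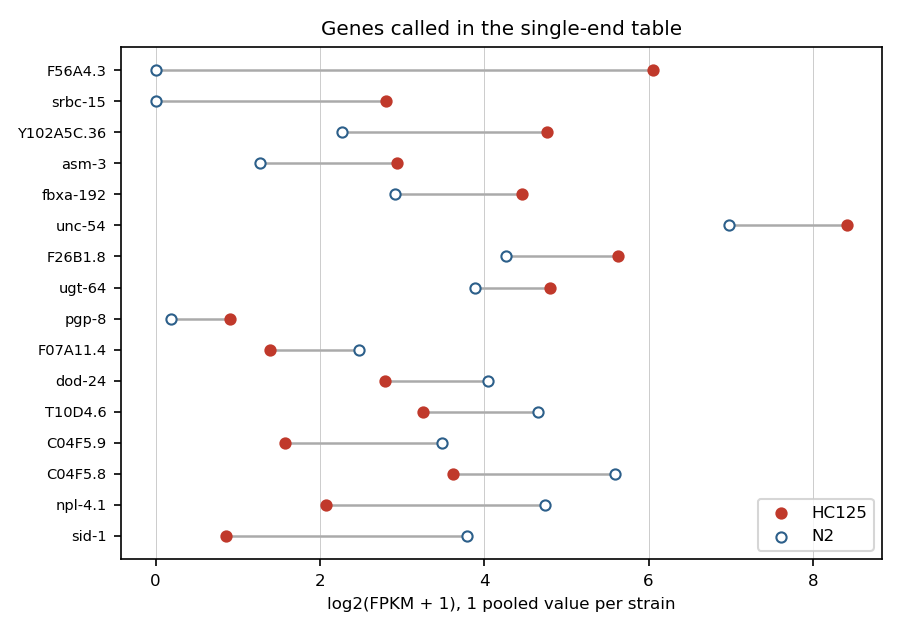
The horizontal axis is log2(FPKM + 1) of each of the 16 called genes, with HC125 as a filled and N2 as an open circle, 1 pooled value per strain, ordered by ratio. The 9 genes at the top were higher in HC125, of which F56A4.3 and srbc-15 were listed at 0 in N2, and the 7 at the bottom were lower, down to sid-1.

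The largest ratios outside the calls belonged to low genes, most of them listed at 0 in a strain. At an unadjusted p under 0.05, 39 genes were listed at 0 in 1 strain, 17 in N2 and 22 in HC125, and 37 of them were not called. F56D6.19 was at 11.3 FPKM in HC125 and listed at 0 in N2, and its paired-end values were 12.7 FPKM in HC125 and 14.2 FPKM in N2. In the other direction, C53B7.6 was listed at 0 in HC125 and at 10.3 FPKM in N2, while the paired-end libraries had 12 FPKM in HC125 and 6.61 FPKM in N2. fipr-17, of a family of short secreted peptides grouped with the antimicrobial genes, was listed at 0 in HC125 and at 4.75 FPKM in N2, with paired-end values of 1.53 FPKM in HC125 and 1.1 FPKM in N2. A listing at 0 was therefore not repeated in the other experiment for these 3 genes.

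The major sperm proteins were higher in HC125 as a family in the single-end libraries. They form the filaments that drive crawling of the amoeboid sperm and also signal to oocytes. Of 31 listed members, 28 were tested, and 28 of 28 were higher in HC125, against 40.04% of all tested genes. Their median ratio was 0.99. None of them was called at q, while 19 of 28 were higher at an unadjusted p under 0.05, against 1.22% of all tests in that direction, and none was lower. Their FPKM summed to 663 in HC125 and 328 in N2.

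Single members show how far the difference ranged. msp-152 was at 72.5 FPKM in HC125 and 32.7 FPKM in N2, with the lowest p of the family, p = 0.0002 and q = 0.131 in the authors' deposited table. msp-36 had the highest level, 79.9 FPKM in HC125 and 49.6 FPKM in N2, and msp-76 had 60.2 FPKM in HC125 and 28.2 FPKM in N2. Folds over the 28 genes ran from 1.54 for msp-31 to 3.19 for msp-56, which was at 9.07 FPKM in HC125 and 2.84 FPKM in N2. Members are close copies whose reads can match several of them, so the 28 values are not independent and the split between them is uncertain. On chromosome IV, msp-81, msp-10, msp-56 and nspd-2 formed a run of 4 tested genes in a row with p under 0.05.

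**Figure D3:**
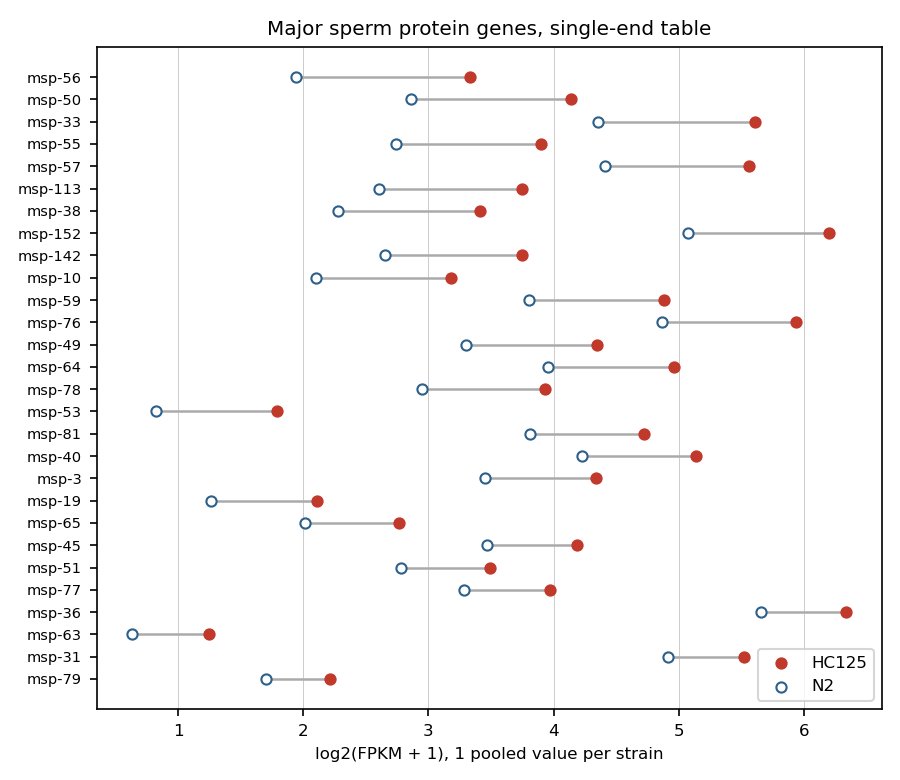
The horizontal axis is log2(FPKM + 1) for the 28 tested major sperm protein genes, with HC125 as a filled and N2 as an open circle, 1 pooled value per strain, ordered by ratio. The HC125 value lies to the right of the N2 value in all 28, and the distance runs from 0.51 log2 units for msp-79 to 1.39 for msp-56.

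Other small sperm genes followed the same direction. The list holds the ssp, ssq, msd, smz, nspa, nspb, nspd and spch families, the last a set of small basic sperm chromatin proteins. Of its 58 members 37 were tested, 36 of 37 were higher and the median ratio was 0.81. None was called, and 13 of 37 were higher at an unadjusted p under 0.05 (35.1%, against 1.22% of all tests) with none lower. msd-2, of the family of sperm proteins with an MSP domain, was at 74.4 FPKM in HC125 and 42.1 FPKM in N2, p = 0.00505 in the authors' deposited table. ssq-1, a sperm-specific protein of class Q, was at 40.7 FPKM in HC125 and 19.9 FPKM in N2. nspd-2 was at 52.4 FPKM in HC125 and 25.5 FPKM in N2. The spch genes, listed as T27A3.4, C04G2.8 and C10G11.9, were at 15.8, 17.7 and 4.19 FPKM in HC125, against 8.14, 7.95 and 1.39 FPKM in N2.

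Genes that act in sperm development were closer to equality. Of the 36 genes in this list 20 were tested, 13 were higher, and the median ratio was 0.08, with none at an unadjusted p under 0.05 in either direction. The highest ratios were those of gsp-3 and gsp-4, phosphatases needed for sperm meiosis and motility. gsp-3 was at 8.30 FPKM in HC125 and 4.72 FPKM in N2, p = 0.0709 in the authors' deposited table, and gsp-4 at 11.5 FPKM in HC125 and 7.17 FPKM in N2, p = 0.209 in the same deposited table of the authors. spe-44, a transcription factor of spermatocytes, was at 13.2 FPKM in HC125 and 12.4 FPKM in N2. spe-6, a kinase of spermatocytes and spermatids, was at 4.37 FPKM in HC125 and 4.46 FPKM in N2. The Argonautes of spermatogenesis alg-3 and alg-4, listed as T22B3.2 and tag-76, were at 1.06 and 1.17 FPKM in HC125, against 0.603 and 0.710 FPKM in N2, and were not called. In whole worms a difference in the number of sperm or spermatocytes and a difference in RNA per cell cannot be told apart.

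Annotated exon length moved with these values, and its part in them was not tested. In the WBcel235 annotation the major sperm protein genes are all 384 bp long in exons, against a median of 1320 bp for tested genes. The positions listed for msp-56, 9841443 to 9841951, span more than 384 bp. Those positions come from an annotation that is not known, so whether annotated length falls short of transcript length cannot be told from them. Among genes outside the 3 sperm lists, those of 300 to 500 bp had a median ratio of 0.00 over 876 genes, and those over 2000 bp had -0.06 over 3303 genes. The 45 members of the sperm lists with 300 to 500 bp had a median of 0.91, and the 16 with 1000 to 2000 bp had 0.09. The length bins were chosen after the values had been seen.

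The sperm genes were near equality in the other experiment. The 28 major sperm protein genes had a median ratio of 0.12 there, with 23 higher and none at p under 0.05. The small sperm families had 0.09 over 36 genes and the sperm function list -0.06 over 20. msp-33 was at 165 FPKM in HC125 and 149 FPKM in N2 in that table. msp-56 was at 52.7 FPKM in HC125 and 50.8 FPKM in N2. All tested major sperm protein genes had lower FPKM in the single-end than in the paired-end table, in both strains. In N2, msp-36 was at 49.6 FPKM in the single-end and 228 FPKM in the paired-end table. For msp-56 in N2 the single-end value was 2.84 FPKM. The higher ratios of this family were thus measured where its listed levels were lower. Whether the level affects the ratios was not tested. No sperm gene passed the test of the difference described at the end. Of 12921 genes only 1 passed it, at a difference of 2.96 log2 units. Smaller differences can be missed, so not passing does not show that the ratios were equal.

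Other germline lists stayed near the median of all genes. The oocyte and eggshell list had a median ratio of -0.04, with 10 of 32 members higher and none at p under 0.05. puf-5, a translational repressor in oocytes, was at 1099 FPKM in HC125 and 1123 FPKM in N2. The germline and P granule list had -0.06 over 34 genes, and germline sex determination had -0.02 over 25 genes. fem-3 and fog-1, which promote the sperm fate, were at 30.8 and 9.16 FPKM in HC125, against 30.2 and 9.75 FPKM in N2. Of the yolk protein genes, vit-2 was at 3476 FPKM in HC125 and 3099 FPKM in N2 and was not called, while vit-3, vit-4 and vit-5 have no completed test because they were too deeply covered for the authors' tool.

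RNA interference genes other than sid-1 showed small differences in the same direction as most genes. Medians were -0.08 over 22 Argonautes, -0.05 over 31 genes of small RNA production and -0.08 over 26 genes of nuclear RNA interference and silencing chromatin. No gene of these 3 lists was at an unadjusted p under 0.05. Lower values in HC125 were found for 16 of 22, 26 of 31 and 21 of 26 of them, beside 59.96% of all tested genes. hrde-1, the germline nuclear Argonaute required for inheritance of silencing, was at 174 FPKM in HC125 and 185 FPKM in N2. nrde-3, its somatic counterpart, was at 14.9 FPKM in HC125 and 16.2 FPKM in N2. rde-1, the Argonaute that receives primary small RNAs, was at 17.9 FPKM in HC125 and 19.8 FPKM in N2, and prg-1, which binds piRNAs, at 138 FPKM in HC125 and 141 FPKM in N2.

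**Figure D4:**
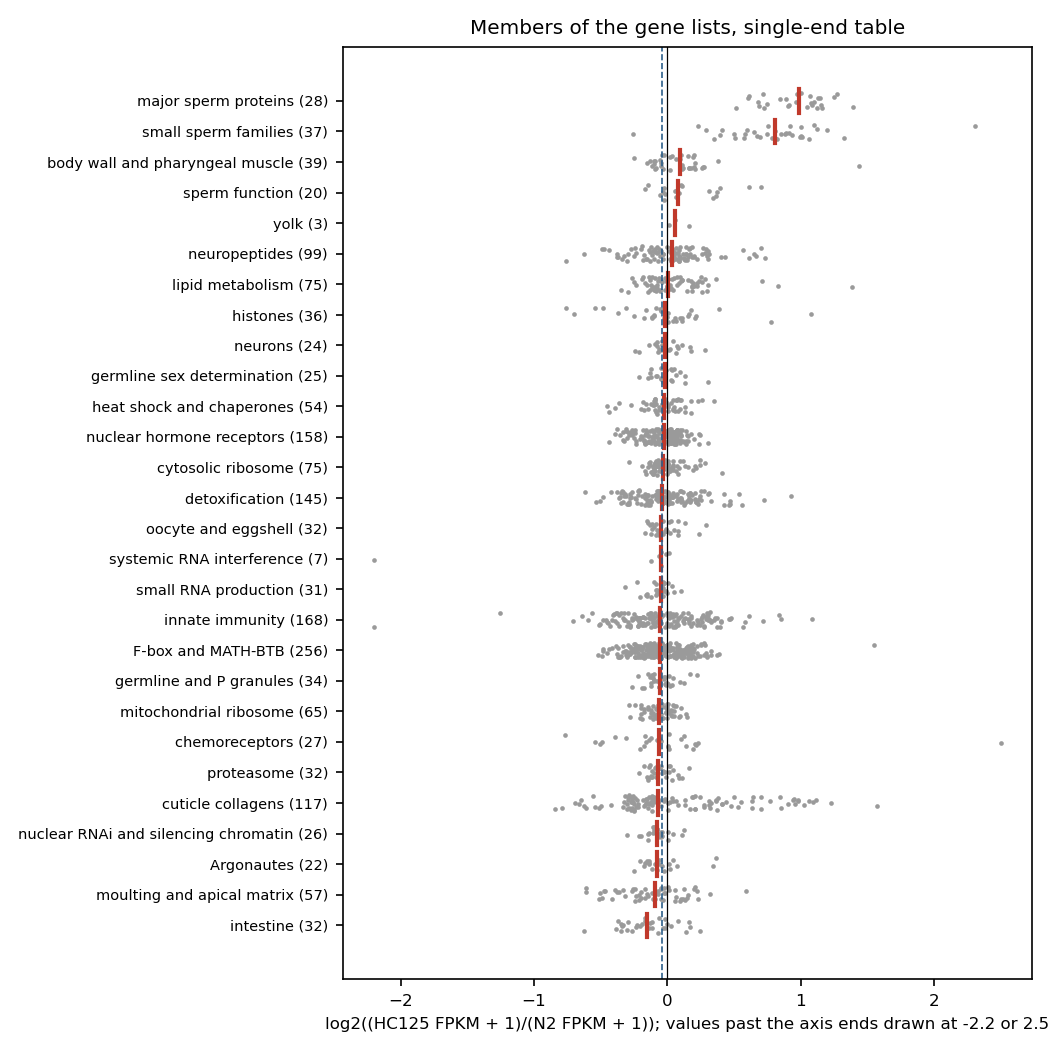
Each row is a gene list with its number of tested members, each grey point a member's log2 ratio of HC125 to N2 (FPKM + 1) and the red bar the list's median. The dashed line marks the median of all tested genes, -0.04; the major sperm proteins at 0.99 and the small sperm families at 0.81 stand to the right of it, while the intestine list at -0.15 is the lowest.

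Cuticle collagens split by level. Their median ratio was -0.07 over 117 tested genes, and none was called. At an unadjusted p under 0.05, 12 were higher (10.3%, against 1.22% of all tests) and 5 lower (4.27%, against 1.16%). Of the 25 genes above 100 FPKM on average, 24 were lower in HC125, with a median of -0.24. Of the 78 genes at 10 FPKM or below, 48 were higher, with a median of 0.19. Among abundant collagens, col-119 was at 6108 FPKM in HC125 and 7383 FPKM in N2, col-122 at 5781 FPKM in HC125 and 6962 FPKM in N2, and col-19, an adult-specific collagen, at 1343 FPKM in HC125 and 1561 FPKM in N2. col-179 alone of the 25 had p under 0.05, at 469 FPKM in HC125 and 631 FPKM in N2. These level bins were chosen after the values had been seen.

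Several low collagens had higher levels in HC125 in both experiments. col-161 was at 3.43 FPKM in HC125 and 0.493 FPKM in N2, p = 0.0107 in the authors' deposited table, and at 9.40 FPKM in HC125 and 0.671 FPKM in N2 in the paired-end table. dpy-13, needed for normal body length, was at 2.53 FPKM in HC125 and 0.506 FPKM in N2, and dpy-5 at 1.87 FPKM in HC125 and 0.492 FPKM in N2. Both had p = 5e-05 in the authors' deposited table of the paired-end experiment, where they stood at 7.08 and 12.3 FPKM in HC125, against 0.646 and 0.739 FPKM in N2. The list's paired-end median was 0.27 over 113 genes, with 33 higher and none lower at p under 0.05.

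A smaller set of cuticle genes was lower in HC125. dpy-14 was at 39.6 FPKM in HC125 and 63.3 FPKM in N2, p = 0.00305, and dpy-17 at 44.2 FPKM in HC125 and 69.9 FPKM in N2, p = 0.0053, both in the authors' deposited table. The 6 collagens of the annular furrows, dpy-2, dpy-3, dpy-7, dpy-8, dpy-9 and dpy-10, were all lower in the single-end libraries and all higher in the paired-end ones; this set was picked after the values had been seen. dpy-7 was at 1.99 FPKM in HC125 and 4.19 FPKM in N2, p = 0.0466 in the authors' deposited table, but its paired-end values were 3.40 FPKM in HC125 and 1.21 FPKM in N2, p = 0.0092 in the authors' deposited table of that experiment.

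Of the 57 tested genes of moulting and the apical matrix none was called, and the median ratio was -0.09. Lower levels in HC125 were found for 39 (68.4%), beside 59.96% of all tested genes. At an unadjusted p under 0.05, 5 were lower (8.77%, against 1.16% of all tests) and none was higher. noah-2 and noah-1, zona pellucida domain proteins of the apical matrix, were at 12.4 and 9.85 FPKM in HC125, against 19.4 and 14.5 FPKM in N2. mlt-11, a protease inhibitor of the moult, was at 2.58 FPKM in HC125 and 3.98 FPKM in N2. In the paired-end libraries the median of the list was 0.07.

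Intestinal genes had the lowest median of the lists, -0.15, with 26 of 32 members lower (81.2%, against 59.96% of all tested genes), none called and 1 at an unadjusted p under 0.05. That gene was asp-5, an aspartic protease of the gut lumen, at 563 FPKM in HC125 and 729 FPKM in N2, p = 0.0330 in the authors' deposited table. All 12 tested asp genes were lower, with FPKM summing to 8820 in HC125 and 10388 in N2. asp-1 made up much of this at 4268 FPKM in HC125 and 5009 FPKM in N2. The cathepsin B genes cpr, also gut proteases, were lower in 5 of 5, with a sum of 3471 FPKM in HC125 and 4039 FPKM in N2.

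In the innate immunity list dod-24 was the only call among 168 tested genes. The median was -0.05. At an unadjusted p under 0.05, 8 were lower (4.76%, against 1.16% of all tests), while the 3 higher ones (1.79%) were near the 1.22% of all tests. Lysozymes were among the lower ones. lys-4 was at 461 FPKM in HC125 and 657 FPKM in N2, p = 0.00555 in the authors' deposited table, and ilys-5 at 3205 FPKM in HC125 and 4172 FPKM in N2, p = 0.0406 in the same deposited table of the authors. lys-7 was at 77.6 FPKM in HC125 and 107 FPKM in N2, and its paired-end values were close to these, 65.3 FPKM in HC125 and 106 FPKM in N2, p = 0.0312 in the authors' deposited table of that experiment. In the other direction, clec-218, a C-type lectin, was at 21 FPKM in HC125 and 13.4 FPKM in N2.

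The detoxification list held 145 tested genes with a median of -0.04. At an unadjusted p under 0.05, 5 were higher (3.45%, against 1.22% of all tests) and 4 lower (2.76%, against 1.16%). cyp-25A1 and cyp-25A3, cytochrome P450 enzymes, were at 3.97 and 1.27 FPKM in HC125, against 6.22 and 2.22 FPKM in N2. The lipid metabolism list had a median of 0.00 over 75 genes, none called, 3 higher (4%, against 1.22% of all tests) and none lower at that p. lipl-1, a lysosomal acid lipase that is induced by fasting, was at 2.72 FPKM in HC125 and 0.423 FPKM in N2, with p = 0.00015 and q = 0.110 in the authors' deposited table. Its relative lipl-3 was at 0.507 FPKM in HC125 and 0.508 FPKM in N2. Ribosomal proteins, the proteasome, heat shock proteins, histones, neuronal genes and nuclear hormone receptors had medians between -0.07 and -0.01, with none of their members at p under 0.05.

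Gene name families do not depend on chosen lists. Of 97 families with at least 10 tested members, 85 had a median within 0.1 of 0, 17 were above 0 and 80 below. The msp family was highest at 0.99, followed by nspc, short nematode-specific peptides, at 0.44. Of 16 tested nspc genes 14 were higher, against 40.04% of all tested genes. At p under 0.05, 2 were higher, against 1.22% of all tests in that direction. nspc-19 was at 24.6 FPKM in HC125 and 11.8 FPKM in N2, and nspc-16 at 11.3 FPKM in HC125 and 5.66 FPKM in N2. The third highest, rgs, regulators of G protein signalling, had 0.11. At the low end stood asp at -0.19 and skr, Skp1-related subunits of ubiquitin ligases, at -0.18 with 17 of 18 lower. Next was sdz, genes first found by their dependence on SKN-1 in embryos, at -0.17 with 23 of 28 lower. Of all tested genes 59.96% were lower. In the paired-end table skr and sdz had medians above 0, 0.12 over 18 genes and 0.13 over 27. There asp had -0.13, nspc 0.09 and rgs -0.07.

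The makeup of the genes at an unadjusted p under 0.05 was set beside that of all tested genes. Of the 161 higher ones, 19.9% belonged to the 3 sperm lists, which hold 0.646% of tested genes. Cuticle collagens made up 7.45% of the higher ones and 0.89% of tested genes. Chromosome IV held 30.4% of the higher ones and 16.8% of tested genes, and the X chromosome 4.35% and 14.3%. The chromosome IV share and the sperm share overlap and are not separate results. Many of the higher sperm genes, such as msp-76 and ssq-1, lie on chromosome IV. Of the 153 lower ones, none belonged to the sperm lists. Chromosome V held 26.1% of the lower ones and 18.5% of tested genes, while the X chromosome, with 17% of the lower ones, was near its 14.3% of tested genes. Median ratios by nuclear chromosome differed little, from -0.05 on X to -0.03 on II, IV and V. On the left end of chromosome I, snpc-3.3, Y48G1BL.5 and Y48G1BL.6 were a run of 3 lower genes. snpc-3.3 was at 1.94 FPKM in HC125 and 4.68 FPKM in N2, and was at 1.17 FPKM in HC125 and 1.38 FPKM in N2 in the paired-end table.

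The paired-end libraries of the same strains share no library with the single-end ones. In that experiment 0.212% of tests passed the authors' deposited q, and their p was under 0.05 in 1.28% of tests, 0.926% higher and 0.351% lower in HC125. Of 12954 genes with a test in both, 152 were higher with p under 0.05 in the single-end and 97 in the paired-end table, and 23 were in both. That is 15.1% of the single-end genes and 23.7% of the paired-end genes. Of the lower genes, 139 in the single-end and 44 in the paired-end table shared 15, which is 10.8% and 34.1% of the lists. At any p, 100 of the 152 higher genes were also higher in the paired-end table, where 5190 of the 12954 genes were higher. For the lower genes, 85 of the 139 were also lower there, a share close to that of all genes. Opposite directions at that p occurred for 8 genes.

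Among lower genes shared by both tables were asfl-1, an orthologue of the histone chaperone ASF1, and C45E5.4. asfl-1 (chromosome I, 9658274 to 9660073) was at 43.2 FPKM in HC125 and 70.5 FPKM in N2 in the single-end table. The paired-end table had 44.6 FPKM in HC125 and 77.1 FPKM in N2. C45E5.4 was at 14.8 FPKM in HC125 and 31 FPKM in N2, and at 2.38 FPKM in HC125 and 8.43 FPKM in N2 in the paired-end table. ZK673.1 and F31E3.6 were at 45.8 and 28.3 FPKM in HC125, against 91.2 and 54.1 FPKM in N2. None of these 4 passed the q threshold in the single-end table, where asfl-1 had p = 0.00055 and C45E5.4 p = 0.00035 as deposited by the authors. Among shared higher genes, F08G5.6 was at 28.3 FPKM in HC125 and 14.4 FPKM in N2, with p = 0.0001 in the authors' deposited table, and its paired-end values were 114 FPKM in HC125 and 75 FPKM in N2.

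Of the 8 genes with opposite directions, dpy-7, mlt-8 and ptr-4 are cuticle or moulting genes. The cuticle collagen list holds 0.89% of tested genes and the moulting and apical matrix list 0.433%. The makeup of so few genes was not tested. Lower in the single-end and higher in the paired-end libraries were dpy-7, mlt-8, ptr-4, dao-2, ZC204.14 and Y43F8A.1. dao-2 was at 57.6 FPKM in HC125 and 102 FPKM in N2, while the paired-end table had 14.8 FPKM in HC125 and 5.56 FPKM in N2. mlt-8 was at 4.33 FPKM in HC125 and 7.13 FPKM in N2, and at 5.63 FPKM in HC125 and 2.23 FPKM in N2 in the paired-end table. The reverse held for F42A9.6 and fbxa-192. Kit, read layout, strandedness and the worms themselves all differ or may differ between the experiments and cannot be told apart.

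The difference of the ratios between the experiments was tested with a z test on the implied errors over 12921 genes, and 1 gene, 0.00774% of them, passed an adjusted p of 0.05. This was fbxa-192, with a single-end minus paired-end difference of 2.96 ± 0.59 log2 units (implied SE) on the scale without a pseudocount, adjusted p = 0.00572 from the authors' deposited test statistics. Its paired-end values were 12.4 FPKM in HC125 and 30.02 FPKM in N2. asm-3, with a difference of 2.31 ± 0.74, and Y102A5C.36, with 2.28 ± 1.1, did not pass. For sid-1 the difference was -0.06 ± 0.75 and for C04F5.9 it was 0.02 ± 0.64.

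**Figure D5:**
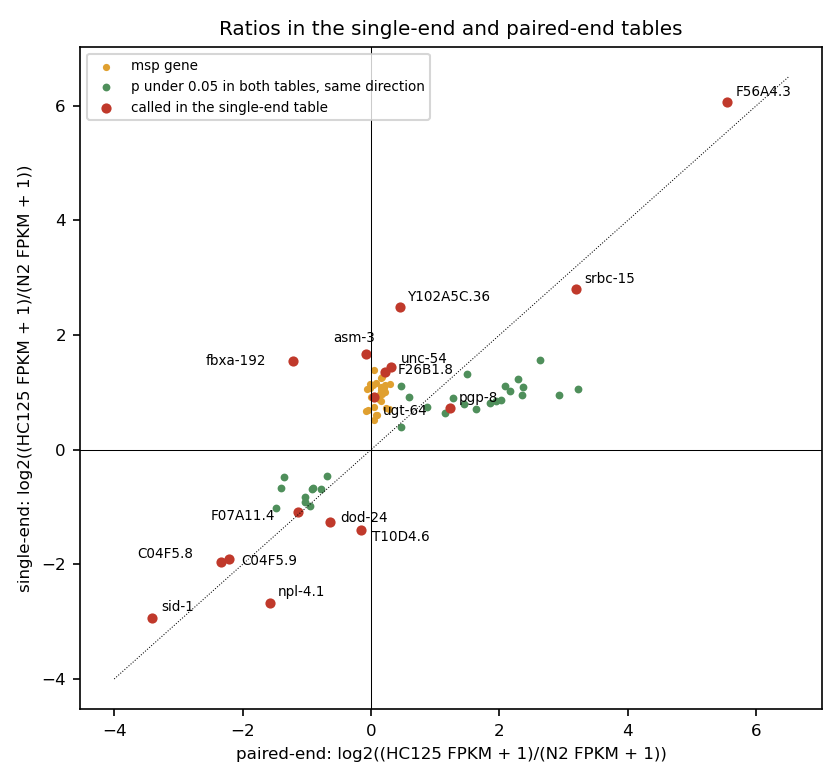
The vertical axis is the log2 ratio of HC125 to N2 (FPKM + 1) in the single-end table and the horizontal axis that in the paired-end table, for the 16 called genes (red), genes with p under 0.05 in both tables and the same direction (green) and the tested msp genes (orange); the dotted line is equality. sid-1 and F56A4.3 lie near that line, fbxa-192 is on the opposite side of 0 in the paired-end table, and the msp genes are near 0 on the horizontal axis only.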

How the data were processed

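Per the file headers, the deposited tables, 1 per experiment, have Cuffdiff's layout. FPKM values were computed by the authors, 1 per gene and strain, pooling 2 libraries. The p-value, the q-value and the test statistic, a score per gene, were deposited by the authors too. TopHat2 2.0.1 and Cufflinks 2.2.1 are named, without roles, per the submitters' processing notes. No source used here gives build or annotation; 20194 of 20541 identifiers are in the WBcel235 annotation on the same chromosome, and positions are as the files list them, counted from 1. Depth is not in the tables. Genes marked too low (7375), failed (13) or too deep (3) had no completed test. The q-values match Benjamini-Hochberg adjustment over completed tests. Ratios use a pseudocount of 1. The implied standard error is the log2 fold divided by the test statistic; it need not match the deposited p. Intervals rest on it and a normal approximation. The z test was run on simulated data drawn with the same implied errors, so that run cannot show whether the errors are right. Tools were pandas 2.3.3, numpy 2.4.6, scipy 1.17.1 and matplotlib 3.10.9.

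Members and lists were chosen with earlier results of these data known; lists are described, not tested. Named genes are all called genes, sid-1 and its 2 neighbours, up to 12 per direction with the largest ratios at p under 0.05, up to 12 shared by both tables, per list up to 4 of lowest p and 2 of highest level, and family extremes. Others, such as paralogues, neighbours, pathway genes and runs, were chosen after their values were seen.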

Additional observations from a re-analysis of the deposited data

Results flagged for a closer look

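The F-box gene fbxa-192 differed between the experiments: its log2 ratio of HC125 to N2 was 2.96 higher in the single-end than in the paired-end libraries, the only difference of 12921 that passed the z test. Levels were 21 FPKM in HC125 and 6.55 FPKM in N2 in the single-end table, and 12.4 FPKM in HC125 and 30.02 FPKM in N2 in the paired-end table.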

How the results depend on the processing

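The 9 higher and 7 lower calls became 0 and 0 at a q of 0.01 or less and under a Bonferroni adjustment, since the 16 genes share the smallest deposited p; at an unadjusted p under 0.05 the authors' deposited table has 161 and 153 genes. At a q of 0.1, with a filter on FPKM or with a minimum ratio, the counts ran from 8 to 10 higher and 6 to 7 lower. At an unadjusted p under 0.01, 44 genes were higher and 45 lower. The share of small sperm genes that were higher was 100% at 1 FPKM or more, and that of sperm function genes was 85.0% after centring on the median ratio. The direction of asm-3 and fbxa-192 was the opposite in the paired-end libraries, with log2(FPKM + 1) ratios of -0.075 and -1.21, and the cause was not tested. Other pseudocounts turned no named gene's direction. No paired analysis was possible because the table holds 1 pooled value per strain, and for the same reason no library could be left out. FPKM without counts or depth gives no counting interval, and genes under 1 FPKM carry the widest errors.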
